A study of Mus musculus with 9 samples.

Results

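The genes described here encode the phagocyte NADPH oxidase and the enzymes that produce or dispose of other reactive species in inflamed tissue. The 9 members were listed by name: Cybb, Cyba, Ncf1, Ncf4, Rac2, Nos2, Hmox1, Nqo1 and Sod2. They are 9 of 55450 annotated genes, and all 9 passed the filter on low counts, which left 20892 genes for testing. RNA of dissected mouse nigral tissue was sequenced in 9 bulk libraries, 3 per group, collected 5 weeks after stereotactic injection of a Cre-dependent lentiviral vector into both sides of the brain. The control group (CTR) received a vector for destabilized GFP according to the methods, while the sample labels read GFP. The CX3 group and the DAT group both received the Synuclein-expressing vector. According to the methods, CTR and CX3 animals carried CX3CR1-CreERT2, active in microglia after tamoxifen (75 mg/kg for 4 days), and DAT animals carried DAT-Cre, active in dopaminergic neurons. The sample labels of CTR name the vector only and do not give the mouse line. All animals were male, with an age of 8 weeks at injection in the study's results and of 9 weeks at purchase in its methods. The DAT group therefore differed from CTR in mouse line and drug as well as in vector, and these cannot be told apart because no DAT-Cre group with the control vector was analysed here. The sources used here do not name the number of animals behind a library, so every p-value measures the spread between these libraries, which may be technical.

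The oxidase of phagocytes is a membrane heterodimer of Cybb, the catalytic electron-transfer chain, and Cyba, its stabilising partner. On activation it is joined, among others, by the cytosolic organiser Ncf1, the phosphoinositide-binding subunit Ncf4 and the GTPase Rac2 of blood-derived cells, and it then reduces oxygen to superoxide with electrons from NADPH. In brain these genes are known mainly from microglia and from infiltrating leukocytes. Nos2 is the inducible nitric oxide synthase. Sod2 is the mitochondrial superoxide dismutase, Hmox1 the inducible haem oxygenase and Nqo1 a quinone reductase, the latter pair being classical targets of the transcription factor NRF2.

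The reads were counted on genes of GENCODE M21 (mouse genome GRCm38), and levels are given as CPM, the counts of a gene scaled to the same library size everywhere with TMM factors. Cybb (ENSMUSG00000015340.10) lies on chromosome X from 9435252 to 9487771. Cyba (ENSMUSG00000006519.11) lies on chromosome 8 from 122424776 to 122432930 and Ncf1 (ENSMUSG00000015950.13) on chromosome 5 from 134220053 to 134229625. Ncf4 (ENSMUSG00000071715.12) and Rac2 (ENSMUSG00000033220.7) both lie on chromosome 15, from 78244801 to 78262580 and from 78559167 to 78572783. Nos2 (ENSMUSG00000020826.8) lies on chromosome 11 from 78920787 to 78960254 and Sod2 (ENSMUSG00000006818.5) on chromosome 17 from 13006846 to 13040063. Hmox1 (ENSMUSG00000005413.8) and Nqo1 (ENSMUSG00000003849.8) lie on chromosome 8, from 75093621 to 75100589 and from 107388225 to 107403206.

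Start-site sequences of RefSeq (build GRCm38.p6, 250 bases before to 50 bases after the start) matched 5 of the 9 members, Cybb, Cyba, Ncf1, Nqo1 and Sod2. The other four are Ncf4, Rac2, Nos2 and Hmox1. Those of the 3 oxidase subunits are printed because these genes were all lower in DAT than in CTR and CX3, though to different degrees. Each is read 5′ to 3′ along the gene, with capitals marking matches to the motifs named afterwards.
Cybb, chrX:9469275-9469574, minus strand: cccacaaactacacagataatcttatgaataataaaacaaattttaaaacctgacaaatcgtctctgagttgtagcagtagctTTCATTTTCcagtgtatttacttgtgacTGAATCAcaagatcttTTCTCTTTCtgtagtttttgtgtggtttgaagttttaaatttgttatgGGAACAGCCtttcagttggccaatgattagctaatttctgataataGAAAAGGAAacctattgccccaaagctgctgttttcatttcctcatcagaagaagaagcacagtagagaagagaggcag
Cyba, chr8:122432891-122433190, minus strand: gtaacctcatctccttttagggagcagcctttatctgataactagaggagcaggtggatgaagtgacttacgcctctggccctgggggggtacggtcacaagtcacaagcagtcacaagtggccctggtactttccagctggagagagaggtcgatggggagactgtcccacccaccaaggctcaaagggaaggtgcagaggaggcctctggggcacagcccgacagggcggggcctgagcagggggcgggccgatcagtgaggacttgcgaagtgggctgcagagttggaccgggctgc
Ncf1, chr5:134229576-134229875, minus strand: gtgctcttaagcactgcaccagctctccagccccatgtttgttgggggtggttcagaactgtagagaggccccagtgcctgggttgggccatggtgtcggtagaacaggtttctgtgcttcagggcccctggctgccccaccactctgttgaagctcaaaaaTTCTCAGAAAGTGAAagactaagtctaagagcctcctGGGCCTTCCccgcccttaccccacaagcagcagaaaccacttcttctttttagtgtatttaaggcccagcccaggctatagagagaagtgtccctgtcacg
The motifs were searched on both strands. The interferon-stimulated response element was written as GAAANNGAA, the interferon gamma activated site as TTCNNNGAA, the NF-kappaB site as GGNNNTTCC, the AP-1 site as TGANTCA, the PU.1 core as GAGGAAG and the core of the antioxidant response element as TGACNNNGC. The Cybb window held GAAANNGAA 3 times, with first bases at -167, -123 and -29 from the start, TGANTCA at -139 and GGNNNTTCC at -75. The Ncf1 window held TTCNNNGAA at -88, GAAANNGAA at -82, which shares bases with it, and GGNNNTTCC at -51. The Cyba window held none of these letters. Of the 32851 promoter windows in the RefSeq table, 8.56% held GAAANNGAA, 8.30% TTCNNNGAA, 18.5% GGNNNTTCC, 7.81% TGANTCA, 13.6% GAGGAAG and 12.4% TGACNNNGC. Of the defence enzymes, Sod2 had TTCNNNGAA at -185, and the Nqo1 window held none of the motifs, TGACNNNGC included.

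Gene counts per library ran from 21592817 to 39475428, at which 3 counts correspond to 0.0779 to 0.151 CPM, a floor for counting error only. The DAT library B stood apart, differing from the DAT libraries A and C by 18.7 and 13.6 times the squared difference of random sampling, against 2.38 times between A and C, 1.49 to 1.89 times within CTR and 2.71 to 7.08 times within CX3. Reads outside any gene were 7.47 to 7.61% in CTR, 6.39 to 7.73% in CX3 and 4.15 to 4.31% in DAT. The tissue itself differed by group. Choroid plexus markers (4 genes, Ttr chief among them) summed to 28.2 to 30.7 CPM in CTR, 1446 to 1558 in CX3 and 840 to 1009 in DAT, and 5 markers of dopaminergic neurons to 413 to 415, 588 to 595 and 350 to 354 CPM. Cx3cr1, the gene at which CreERT2 is inserted, was at 101 to 103 CPM in CTR, 43.6 to 45.3 in CX3 and 78.5 to 86.2 in DAT. CTR and CX3, to which the methods give the same line, thus differed 2.29-fold at the insertion gene (adjusted p = 2.84e-10, edgeR). Which line the CTR libraries came from was not tested, and with another line than CX3 every value of CX3 against CTR would hold a difference of line as well. The vectors' own products are not annotated mouse genes, so these counts give no check of the vectors.

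In the control nigra, the oxidase subunits listed were present at moderate levels. Per length, as RPKM (CPM divided by the exon length in kilobases), Cyba was highest of the 9 genes with 40.3 ± 0.468 (SD, n = 3), followed by Sod2 with 18.6 ± 0.343. Hmox1 (9.33 ± 0.142), Ncf1 (8.56 ± 0.434), Cybb (7.70 ± 0.353), Rac2 (7.08 ± 0.307), Nqo1 (6.45 ± 0.222) and Ncf4 (3.33 ± 0.0523) came next. Nos2 was lowest with 0.155 ± 0.056 RPKM. In this order Cybb and Rac2 differed by less than the sum of their SDs. Exon length here is the union of all annotated transcripts, which is long for Sod2 (10008 bases) and short for Cyba (1039 bases).

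**Figure D1:**
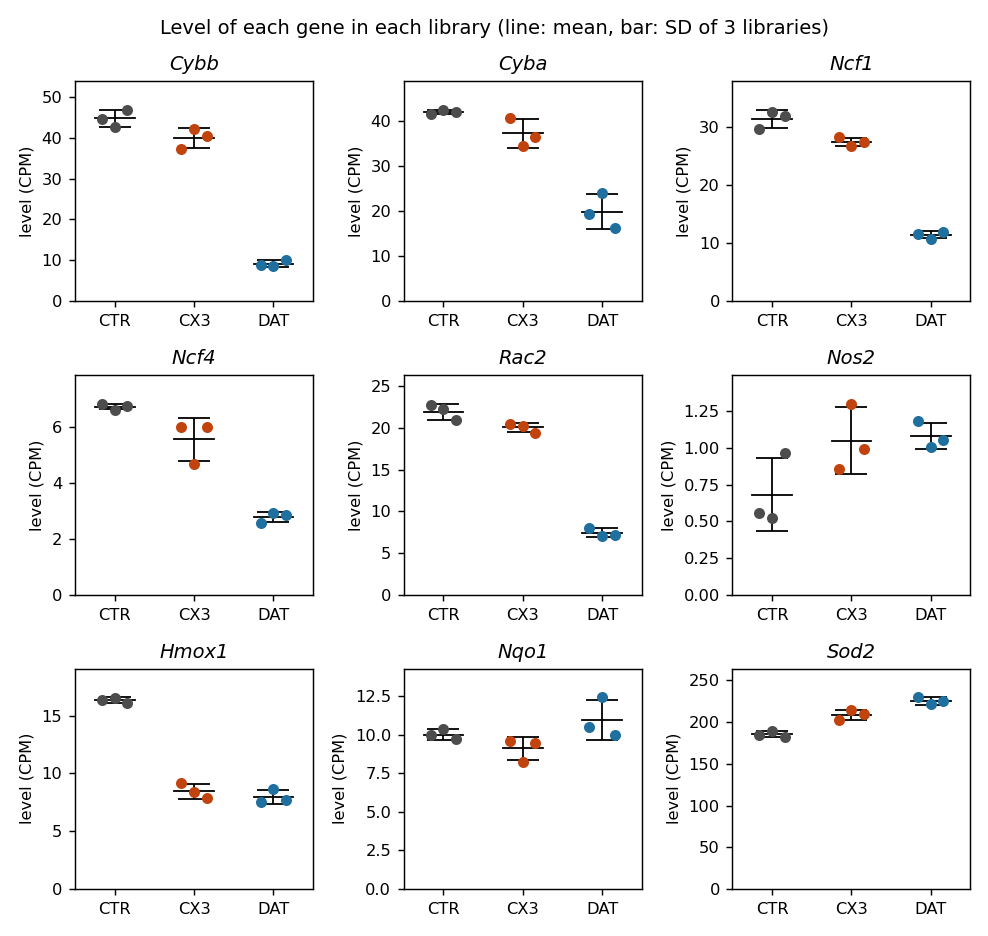
Level of each of the 9 genes in each library, in CPM on a linear axis from 0, for the groups CTR, CX3 and DAT. Points are libraries A, B and C from left to right, the long line is the mean and the bar the SD of 3 libraries. The DAT libraries lie below every CTR and CX3 library for Cybb, Cyba, Ncf1, Ncf4 and Rac2, while both groups with the Synuclein-expressing vector lie below CTR for Hmox1.

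The oxidase genes separated the DAT group from the other two. Cybb, Cyba, Ncf1, Ncf4 and Rac2 were all lower in DAT than in CTR, by 2.12 to 4.85 times, a direction in which 27.9% of all genes were called. All 5 were also lower in DAT than in CX3, by 1.88 to 4.33 times (27.6% of all genes). Between CX3 and CTR the same genes differed by 1.10 to 1.21 times, with CX3 the lower, and 1 of the 5 passed the test (16.5% of all genes were called lower in CX3). In bulk tissue, fewer cells of a type and less RNA per cell cannot be told apart. Neither can be separated from the differences between groups in tissue make-up and in reads outside genes, given before.

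Cybb showed the widest separation. Its level was 44.6, 42.7 and 46.8 CPM in the CTR libraries A, B and C, 37.3, 42.1 and 40.5 in CX3 and 8.91, 8.70 and 10.1 in DAT. Every DAT library was far below the lowest CTR library, and the CX3 libraries sat just below CTR without overlap. The fall from CTR to DAT was 4.85-fold (log2 fold change -2.28 ± 0.074, SE, edgeR quasi-likelihood adjusted p = 1.13e-11), and this log2 fold change stood at the 2.96 percentile of all genes tested. CX3 was 4.33-fold above DAT (log2 fold change 2.12 ± 0.074, adjusted p = 2.67e-11). Against CTR, CX3 had a log2 fold change of -0.16 ± 0.061 that missed the threshold (adjusted p = 0.0598, edgeR) and passed it when only these 2 groups were fitted (adjusted p = 0.0137). The fit of these 2 groups called 8443 of all genes, against 6367 in the fit of all 9 libraries.

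Cyba, which pairs with Cybb in the membrane, gave smaller fold changes. The CTR libraries had 41.4, 42.4 and 41.9 CPM, the CX3 libraries 40.7, 34.4 and 36.4 and the DAT libraries 19.4, 23.9 and 16.3. The DAT libraries were the most spread of the 3 groups and still lay below all others. DAT was 2.12-fold below CTR (log2 fold change -1.09 ± 0.10, adjusted p = 4.43e-07, edgeR) and CX3 1.88-fold above DAT (log2 fold change 0.91 ± 0.10, adjusted p = 2.53e-06). CX3 and CTR gave -0.17 ± 0.092 on the log2 scale (adjusted p = 0.181, and 0.0208 with these 2 groups fitted alone).

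The cytosolic organiser Ncf1 had 29.6, 32.6 and 31.9 CPM in CTR, 28.2, 26.7 and 27.3 in CX3 and 11.6, 10.8 and 11.9 in DAT. The 3 groups did not overlap. DAT was 2.74-fold below CTR (log2 fold change -1.45 ± 0.064, adjusted p = 2.27e-10, edgeR) and CX3 2.39-fold above DAT (1.26 ± 0.064, adjusted p = 1.00e-09). Ncf1 also fell 1.14-fold from CTR to CX3 (log2 fold change -0.20 ± 0.056, adjusted p = 0.0179, edgeR). That small call was lost without CTR library B (adjusted p = 0.0895), CTR C (0.0665), CX3 B (0.0792) or CX3 C (0.0546). It was also lost with library size alone (0.0623), with all genes of at least 1 count (0.135) and in reverse-strand counts (0.206). Ncf1 shares 11.1% of its exon bases with Gtf2ird2 on the opposite strand, and its mean level in CTR was 40.6 CPM in the counts of the reverse strand and 43.2 CPM in those of the forward strand, against 31.4 with both strands counted together.

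Ncf4 was the least abundant subunit, with 6.83, 6.62 and 6.73 CPM in CTR, 5.998, 4.68 and 5.99 in CX3 and 2.58, 2.92 and 2.85 in DAT. One CX3 library, B, was low, and the DAT libraries were below it. Ncf4 fell 2.44-fold from CTR to DAT (log2 fold change -1.29 ± 0.13, adjusted p = 7.21e-07, edgeR) and was 2.02-fold higher in CX3 than in DAT (1.01 ± 0.13, adjusted p = 8.43e-06). CX3 against CTR gave -0.27 ± 0.11 (adjusted p = 0.0704).

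Rac2, the GTPase that completes the active complex in leukocytes, had 22.8, 22.2 and 20.9 CPM in CTR, 20.5, 20.3 and 19.4 in CX3 and 8.06, 7.09 and 7.15 in DAT. The CTR and CX3 ranges nearly met, and DAT was far below both. The fall from CTR to DAT was 2.92-fold (log2 fold change -1.55 ± 0.072, adjusted p = 3.81e-10, edgeR), and CX3 was 2.67-fold above DAT (1.42 ± 0.072, adjusted p = 9.51e-10). CX3 against CTR gave -0.13 ± 0.061 (adjusted p = 0.122).

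Some proportions among subunits differed in DAT. Per length, Cybb over Cyba was 0.191 ± 0.00981 in CTR, 0.194 ± 0.0278 in CX3 and 0.0861 ± 0.0232 in DAT (SD, n = 3 libraries). Ncf1 over Cybb was 1.11 ± 0.0850, 1.09 ± 0.0989 and 1.97 ± 0.0919 in the same order. Both ratios kept the DAT range (0.0650 to 0.111 and 1.88 to 2.06) clear of the ranges of the other groups, while Ncf4 over Cyba overlapped among all 3 groups. Ncf1 over Cyba, at 0.128 to 0.208 in DAT, also overlapped CTR (0.202 to 0.218) and CX3 (0.197 to 0.22).

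Several marker lists of immune cells were lower in DAT than in CTR, as these genes were, and 1 was higher. Some of the lower lists were also well below CTR in CX3, unlike these genes. Counts of markers called are to be read against all genes. Of these, 27.9% were called lower and 32% higher in DAT than in CTR, and 16.5% lower and 14% higher in CX3 than in CTR. Outside immune cells, the markers of endothelium, neurons and choroid plexus, 4 genes each, were all higher in DAT than in CTR. Other lists outside immune cells were mostly lower in DAT. Of 4 oligodendrocyte markers 3 were lower and 1 higher. Their sums were 18610 to 18690 CPM in CTR, 20030 to 20390 in CX3 and 12940 to 13740 in DAT. Of the markers of astrocytes, dopaminergic neurons and erythroid cells, 5 genes each, 3 per list were lower, and 1 dopaminergic marker was higher. Of 4 pituitary markers 2 were lower. Summed markers of all leukocytes (Ptprc, Laptm5, Coro1a and Cd53) were at 245 to 249.3 CPM in CTR, 229 to 237 in CX3 and 156 to 163 in DAT, and all 4 passed the test as lower in DAT than in CTR. Of the 8 microglia markers, 7 were lower in DAT than in CTR and 5 were lower in CX3 than in CTR, with sums of 756 to 765, 525 to 533 and 514 to 530 CPM in CTR, CX3 and DAT. T cell markers (6 of 6 lower in DAT than in CTR) summed to 52.3 to 53.1, 44.0 to 47.4 and 13.2 to 14.5 CPM, and monocyte markers (5 of 5 lower) to 92.5 to 95.6, 56.2 to 61.8 and 32.2 to 35.3 CPM. In CX3 against CTR the monocyte markers split, with Ly6c2 and Vcan lower and Ccr2 (9.72 ± 1.08 against 3.79 ± 0.447 CPM) and Chil3 (4.61 ± 0.499 against 0.713 ± 0.0881 CPM) higher. The 6 markers of B and plasma cells, all lower in both groups than in CTR, summed to 1691 to 1741, 308 to 333 and 76.2 to 89.1 CPM. Border macrophage markers went the other way, with 3 of 4 higher and none lower in DAT than in CTR and sums of 22.4 to 23.8, 23.3 to 25.8 and 30.1 to 31.3 CPM. Neutrophil markers, 7 genes of which Ly6g was at 0 in every DAT library, never summed to more than 3.93 CPM. The part of these cell types in the result was not tested.

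Relative to the summed microglia markers and the summed leukocyte markers, the 5 oxidase genes still had their lowest mean in DAT. Shares of the other marker sums were not taken. Among those, the T cell sum also fell strongly, from 52.3 to 53.1 CPM in CTR to 13.2 to 14.5 in DAT. Cybb amounted to 5.89 ± 0.236% of the summed microglia markers in CTR, 7.56 ± 0.441% in CX3 and 1.78 ± 0.155% in DAT, and to 18.0 ± 0.689%, 17.2 ± 0.948% and 5.78 ± 0.597% of the summed leukocyte markers. Rac2 amounted to 8.86 ± 0.416%, 8.62 ± 0.195% and 4.65 ± 0.337% of the leukocyte sum. For Cyba the spread was narrower, with 16.9 ± 0.320%, 16.0 ± 1.51% and 12.4 ± 2.15% of that sum, and the ranges of CX3 (14.5 to 17.6%) and DAT (10.4 to 14.7%) overlapped. Against the microglia sum, which was lower in CX3 than in CTR, all 5 oxidase genes had a higher mean share in CX3 than in CTR, by 1.19 to 1.31 times. Against the leukocyte sum they had a lower one, at 0.881 to 0.973 times. The microglia sum includes Cx3cr1, the insertion gene, which was 2.29-fold lower in CX3 than in CTR. Only 5 of its 8 markers were lower in CX3, and shares of a sum without Cx3cr1 were not taken. Among the leukocyte markers themselves, Ptprc was at 18.0 ± 2.12 CPM in DAT against 64.5 ± 1.38 in CTR, a wider gap than that of Laptm5 (68.7 ± 4.23 and 78.1 ± 1.63 CPM).

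**Figure D2:**
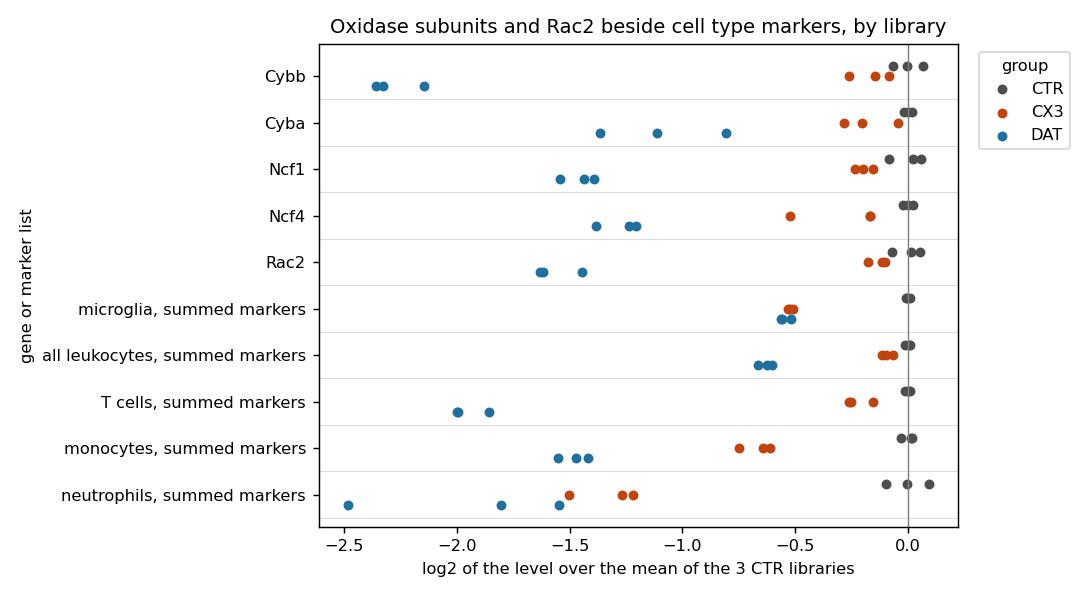
Level in each library over the mean of the 3 CTR libraries, on a log2 axis, for the 5 oxidase genes and for the summed CPM of 5 marker lists. Points are libraries, coloured by group. The microglia sums of CX3 and DAT nearly coincide (525 to 533 and 514 to 530 CPM), while the oxidase genes of the same libraries lie apart. The single microglia markers do not coincide, with 5 of 8 higher and 2 lower in CX3 than in DAT. The T cell sum is also low in DAT (13.2 to 14.5 against 52.3 to 53.1 CPM in CTR).

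The defence and nitric oxide genes followed other patterns. Nos2 was near the limit of counting, with 17, 19 and 29 reads in the CTR libraries A, B and C, 33, 45 and 38 in CX3 and 43, 20 and 24 in DAT. As levels these were 0.558, 0.522 and 0.967 CPM in CTR, 0.857, 1.30 and 0.990 in CX3 and 1.18, 1.01 and 1.05 in DAT. CTR library C overlapped the CX3 group, and CTR and DAT did not overlap. Nos2 was 1.62-fold higher in DAT than in CTR (log2 fold change 0.69 ± 0.28, adjusted p = 0.044, edgeR), a call that was lost without CTR library A, CTR B, DAT A or DAT C (adjusted p = 0.148, 0.187, 0.16 and 0.0754) and under DESeq2 (0.124). It was also lost with library size alone (0.101), in reverse- and forward-strand counts (0.098 and 0.378), in a fit of these 2 groups (0.0588) and with the replicate block (0.0576). CX3 against CTR gave 0.63 ± 0.26 (adjusted p = 0.0898, and 0.0265 without CTR library C). CX3 and DAT were not distinguishable at this depth, with a 95% interval of the log2 difference from -0.61 to 0.48.

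Hmox1 separated CTR from both other groups. It had 16.4, 16.6 and 16.1 CPM in CTR, 9.14, 8.35 and 7.84 in CX3 and 7.54, 8.65 and 7.72 in DAT. The CX3 and DAT ranges overlapped, and every one of their libraries was far below CTR. Hmox1 fell 1.93-fold from CTR to CX3 (log2 fold change -0.95 ± 0.076, adjusted p = 5.28e-07, edgeR) and 2.06-fold from CTR to DAT (-1.04 ± 0.081, adjusted p = 6.75e-08). The difference of CX3 from DAT was 0.093 ± 0.085 on the log2 scale (95% interval -0.09 to 0.28, adjusted p = 0.366). Erythroid markers summed to 242 to 267 CPM in CTR, 94.5 to 108 in CX3 and 187 to 266 in DAT. Astrocyte markers summed to 4213 to 4245, 2268 to 2374 and 2413 to 2487 CPM in the same order, and microglia markers to 756 to 765, 525 to 533 and 514 to 530 CPM. Hmox1 amounted to 2.15 ± 0.0461%, 1.60 ± 0.136% and 1.53 ± 0.135% of the microglia sum. Of the leukocyte sum it was 6.59 ± 0.153%, 3.63 ± 0.277% and 4.98 ± 0.310%. The part of these cells in the result was not tested.

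Sod2, by counts the most abundant member, had 185, 189 and 183 CPM in CTR, 202, 215 and 209 in CX3 and 229.7, 221 and 225 in DAT. The groups stood in that order without overlap. Sod2 rose 1.12-fold from CTR to CX3 (log2 fold change 0.17 ± 0.041, adjusted p = 0.00663, edgeR) and 1.21-fold from CTR to DAT (0.28 ± 0.041, adjusted p = 4.17e-05). CX3 was 1.08-fold below DAT (-0.11 ± 0.041, adjusted p = 0.0307), but the direction turned to 0.08 with scaling by library size alone, and the call was lost without CX3 library A (adjusted p = 0.226), CX3 C (0.141), DAT A (0.172) or DAT C (0.149). The call was also lost with DESeq2 size factors (0.072), with all genes of at least 1 count (0.381), in reverse- and forward-strand counts (0.656 and 0.659), in a fit of these 2 groups (0.136) and with the replicate block (0.0503).

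Nqo1 stayed in a narrow range. It had 9.95, 10.4 and 9.70 CPM in CTR, 9.61, 8.26 and 9.45 in CX3 and 10.5, 12.4 and 9.96 in DAT, with DAT library B the highest. It passed the test in neither comparison with CTR, with log2 fold changes of -0.14 ± 0.091 for CX3 (95% interval -0.33 to 0.06) and 0.12 ± 0.094 for DAT (-0.08 to 0.32), the latter turning to -0.03 with library size alone. CX3 was 1.20-fold below DAT (-0.26 ± 0.093, adjusted p = 0.0284, edgeR), a call lost without CX3 library B (adjusted p = 0.110), CX3 C (0.0557) or DAT B (0.130). It was also lost under DESeq2 (0.0566), with library size alone (0.572), with all genes of at least 1 count (0.0775), in reverse- and forward-strand counts (0.208 and 0.231) and in a fit of these 2 groups (0.0662).

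**Figure D3:**
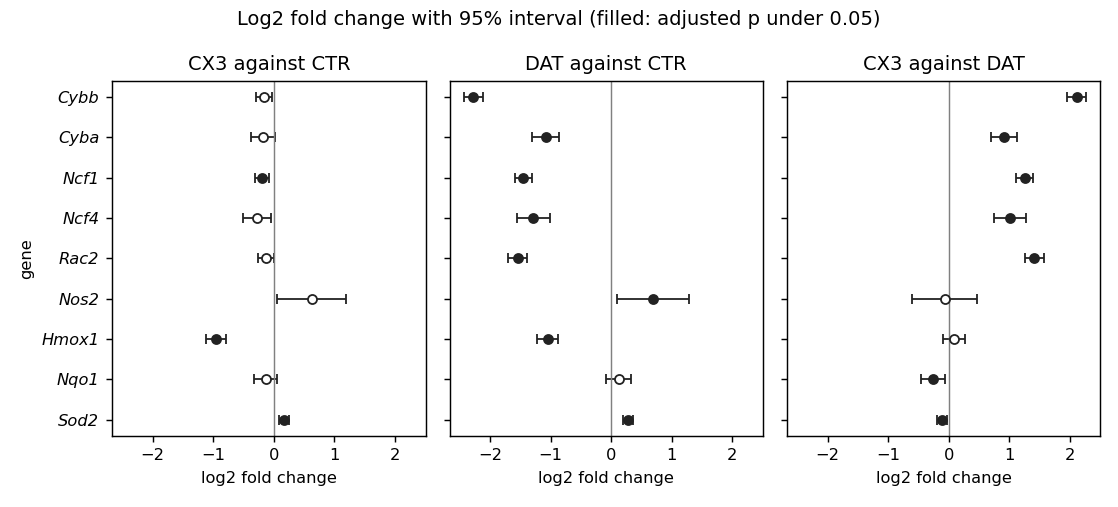
Log2 fold change of each of the 9 genes with its 95% interval in the comparisons CX3 against CTR, DAT against CTR and CX3 against DAT, filled where the adjusted p was under 0.05. The 5 oxidase genes lie between -2.28 and -1.09 in DAT against CTR and between -0.27 and -0.13 in CX3 against CTR. The signs of Nqo1 in DAT against CTR and of Sod2 and Nos2 in CX3 against DAT turned with scaling by library size alone.

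Counted over all 9 genes, 3 passed the test in CX3 against CTR, where 30.5% of all 20892 genes did. Of these, 1 was higher in CX3 (Sod2, against 14% of all genes) and 2 were lower (Ncf1 and Hmox1, against 16.5%). In DAT against CTR 8 passed (59.9% of all genes), 2 of them higher in DAT (Nos2 and Sod2, against 32%) and 6 lower (the oxidase genes and Hmox1, against 27.9%). In CX3 against DAT 7 passed (58.9%), with the 5 oxidase genes higher in CX3 (27.6%) and Nqo1 and Sod2 lower (31.3%). The median log2 fold change of the 5 oxidase genes was -0.17, -1.45 and 1.26 in these comparisons, beside -0.003, -0.004 and 0.010 over all genes. Both comparisons with CTR used the same 3 control libraries. Without DAT library B, which stood apart, 8 members were called in DAT against CTR and 6 in CX3 against DAT, the latter without Nqo1.

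The libraries of the groups did not overlap for 8 members in CX3 against CTR (49.3% of all genes), 8 in DAT against CTR (64.1%) and 7 in CX3 against DAT (61%). When edgeR's test was set against a fold change of 1.5, only Hmox1 passed in CX3 against CTR (2.53% of all genes). The 5 oxidase genes and Hmox1 passed in DAT against CTR (18.1%), and the 5 oxidase genes in CX3 against DAT (18.1%). Over all genes, 2923 were higher and 3444 lower in CX3 than in CTR, 6686 and 5834 in DAT than in CTR, and 5767 and 6544 in CX3 than in DAT. Scaling by library size alone turned these splits to 3958 and 2766, 4890 and 8045, and 8916 and 4444, and moved the median of all genes by 0.046, -0.147 and 0.194 on the log2 scale.

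Of 11 further genes of the oxidase complex and its relatives, 5 were abundant enough to test. They and the lists that follow are to be read against the share of all genes called, which was 30.5% in CX3 against CTR (14% higher, 16.5% lower), 59.9% in DAT against CTR (32% and 27.9%) and 58.9% in CX3 against DAT (27.6% and 31.3%). In CX3 against CTR none was higher and 1 was lower, Cybc1, a chaperone needed for Cybb protein (32.1 ± 0.113 against 37.8 ± 0.298 CPM, adjusted p = 0.00408, edgeR). In DAT against CTR, 1 was lower and 1 higher. Cybc1 was 1.28-fold lower (29.5 ± 2.02 CPM, adjusted p = 6.24e-05). Rac1, the widely expressed relative of Rac2, was higher in DAT (275 ± 9.00 against 220.0 ± 5.69 CPM, adjusted p = 1.86e-05). In CX3 against DAT, 2 were higher and 1 lower, the latter being Rac1 (217 ± 7.17 CPM in CX3, adjusted p = 1.02e-05). Rap1a, a small GTPase found with the oxidase, was at 115 ± 4.03 CPM in CX3 and 94.3 ± 7.78 in DAT (adjusted p = 0.000528), and Nox4, a constitutively active oxidase of other tissues, at 1.49 ± 0.169 and 0.809 ± 0.413 CPM (adjusted p = 0.0129).

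The 7 other genes of nitric oxide and arginine metabolism differed in direction. In CX3 against CTR 3 were higher (14% of all genes) and 3 lower (16.5%), and in CX3 against DAT 2 were higher (27.6%) and 4 lower (31.3%). Arg1, the arginase that competes with nitric oxide synthases for arginine, was 7.23-fold higher in CX3 (2.49 ± 0.201 against 0.344 ± 0.0507 CPM, adjusted p = 4.72e-07, edgeR) and 9.35-fold higher than in DAT (0.244 ± 0.0979 CPM). Ass1, which recycles citrulline to arginine, was at 50.2 ± 1.72 CPM in CTR, 37.9 ± 1.10 in CX3 and 83.3 ± 1.37 in DAT, and passed the test in all 3 comparisons (adjusted p = 2.20e-05, 9.36e-09 and 1.32e-10 for CX3 against CTR, DAT against CTR and CX3 against DAT). Slc7a2, a transporter of arginine, was lower in CX3 (45.9 ± 3.68 CPM) than in CTR (66.5 ± 2.54, adjusted p = 7.12e-05) and DAT (64.2 ± 6.0, adjusted p = 4.35e-05). In DAT against CTR 3 were higher (32% of all genes) and none lower (27.9%), among them the neuronal synthase Nos1 (88.3 ± 13.4 against 31.4 ± 1.28 CPM, adjusted p = 9.79e-09) and the endothelial synthase Nos3 (7.65 ± 0.818 against 4.77 ± 0.307 CPM, adjusted p = 8.04e-05). Endothelial markers summed to 129 to 132 CPM in CTR and 248 to 254 in DAT, and markers of neurons to 2429 to 2463 and 3705 to 3750 CPM, and the part of these cells in the result was not tested.

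Among 15 targets and regulators of NRF2, the list that Nqo1 and Hmox1 would belong to, 3 were higher and 4 lower in CX3 against CTR (14% and 16.5% of all genes), and 7 higher and 4 lower in DAT against CTR (32% and 27.9%). The median log2 fold changes were 0.026 and 0.039. Nfe2l2, which encodes NRF2 itself, fell from 64.2 ± 0.882 CPM in CTR to 38.9 ± 1.64 in CX3 (adjusted p = 8.24e-08, edgeR) and 36.3 ± 1.14 in DAT (adjusted p = 5.35e-09). Gstm1, a glutathione transferase, was at 184.5 ± 3.05 CPM in CTR, 134 ± 2.46 in CX3 and 153 ± 2.69 in DAT and passed the test in all 3 comparisons. The cystine transporter gene Slc7a11 was lower in CX3 (99.3 ± 8.29 CPM) than in CTR (134.5 ± 5.15, adjusted p = 0.000341) and DAT (138 ± 12.7, adjusted p = 4.65e-05). Srxn1, which repairs oxidised peroxiredoxins, rose from 109 ± 1.91 CPM in CTR to 135 ± 4.87 in DAT (adjusted p = 2.66e-05). In CX3 against DAT 3 were higher and 9 lower (27.6% and 31.3% of all genes), the latter including G6pdx, a source of NADPH (53.0 ± 1.97 against 58.6 ± 2.93 CPM, adjusted p = 0.0196).

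Of 14 other enzymes that handle superoxide, peroxide and glutathione, 2 were higher and 3 lower in CX3 against CTR, 4 and 4 in DAT against CTR, and 3 and 3 in CX3 against DAT. With 30.5%, 59.9% and 58.9% of all genes called, these counts are near or below the background. Prdx6, a peroxiredoxin, fell from 403 ± 8.95 CPM in CTR to 221 ± 12.1 in CX3 and 213 ± 15.5 in DAT (adjusted p = 4.87e-08 and 5.34e-09, edgeR). Catalase (Cat) was at 81.2 ± 1.13 CPM in CTR, 59.0 ± 0.952 in CX3 and 79.5 ± 5.74 in DAT, and was lower in CX3 than in either of the others (adjusted p = 1.69e-05 and 7.36e-06). The secreted peroxidase Gpx3 was lower in CX3 (37.1 ± 1.51 CPM) and higher in DAT (66.5 ± 1.62) than in CTR (45.6 ± 1.26), with adjusted p = 0.000447 and 3.22e-07. Prdx5 was higher in DAT than in CTR (276 ± 54.4 against 225 ± 4.48 CPM, adjusted p = 0.0188), and Prdx4 higher in CX3 than in DAT (26.5 ± 1.12 against 21.8 ± 2.78 CPM, adjusted p = 0.0043).

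The 7 haem and iron partners of Hmox1 break down haem, store or export its iron or repress Hmox1. Of all genes, 30.5% were called in CX3 against CTR and 59.9% in DAT against CTR. In CX3 against CTR 1 partner was higher (14% of all genes) and none was lower (16.5%). The higher one was the iron exporter Slc40a1 (13.7 ± 0.955 against 10.6 ± 0.612 CPM, adjusted p = 0.00206, edgeR). In DAT against CTR none was higher (32% of all genes) and 4 were lower (27.9%). These included the ferritin light chain Ftl1 (47.5 ± 5.45 against 84.0 ± 3.13 CPM, adjusted p = 4.10e-07), Bach1, a repressor of Hmox1 (25.98 ± 1.40 against 28.9 ± 0.227 CPM, adjusted p = 0.0367), and the biliverdin reductase Blvrb (10.2 ± 1.35 against 12.3 ± 0.749 CPM, adjusted p = 0.025). Both ferritin chains were higher in CX3 than in DAT, with 75.6 ± 5.96 CPM of Ftl1 (adjusted p = 3.20e-06) and 3640.0 ± 186 against 2468 ± 302 CPM of Fth1 (adjusted p = 4.74e-06). Ferritin genes have near-identical copies in the genome, so their counts are uncertain.

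**Figure D4:**
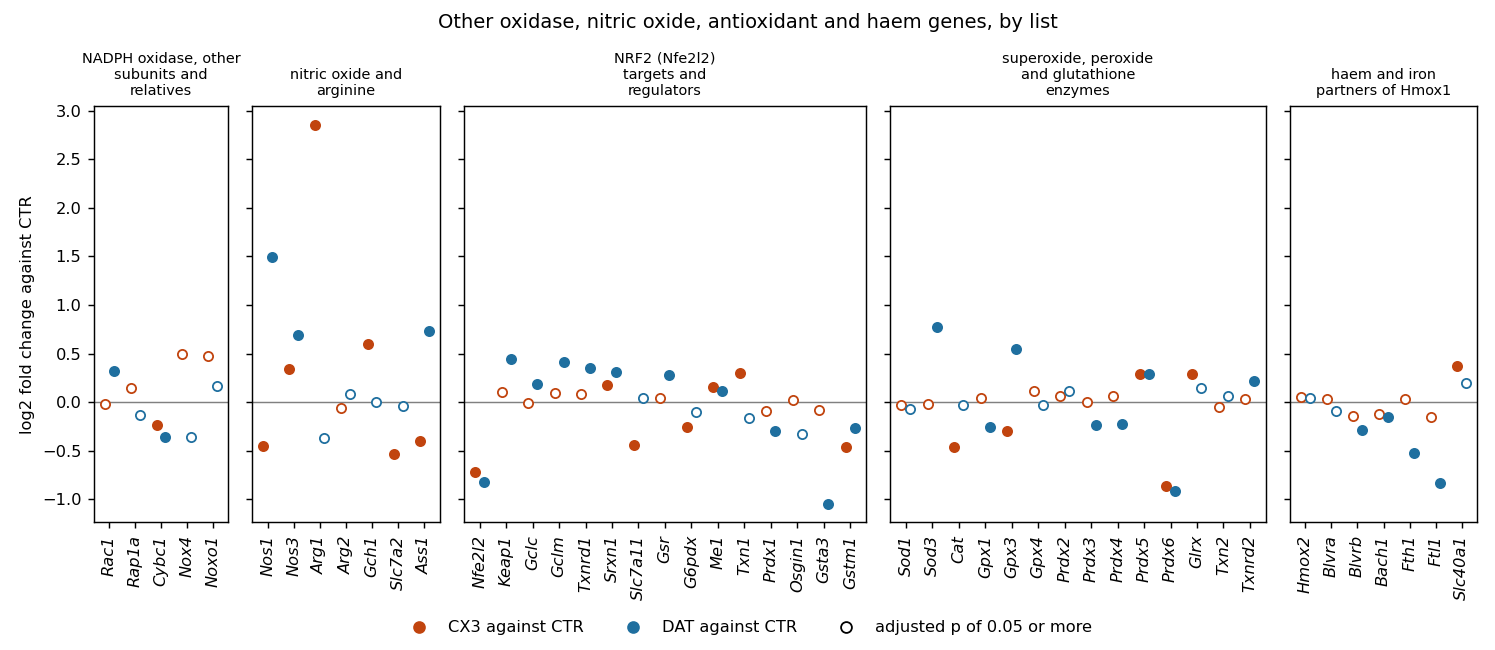
Log2 fold change against CTR of each tested gene of 5 lists, for CX3 and for DAT, filled where the adjusted p was under 0.05. Arg1 lies at 2.85 in CX3, and Prdx6 lies at -0.87 in CX3 and -0.92 in DAT.

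Genes of like pattern were sought among 12615 genes with a mean of at least 5 CPM, by the distance of log2 levels centred over the 9 libraries. Those nearest to Cybb were Gbp9, Ftx, C78859, Gm8995 and Snhg11, at distances of 0.339 to 0.402 (Euclidean, log2 units). Gbp9, an interferon-inducible GTPase, had 60.4 ± 1.83 CPM in CTR, 50.5 ± 4.83 in CX3 and 13.7 ± 1.25 in DAT. Ftx and C78859 are annotated as long noncoding RNAs and Gm8995 as a transcribed pseudogene, and Snhg11 had 1456 ± 18.8, 1411 ± 46.1 and 371 ± 29.7 CPM. None of the 5 is a subunit of the oxidase. Those nearest to Nqo1, Mrpl44, Eif2b2, Ciao1, Wdr74 and Tmed9, lay at 0.145 to 0.172, and Tmed9 for example had 93.8 ± 2.29, 87.1 ± 3.65 and 99.5 ± 6.0 CPM in CTR, CX3 and DAT. All distances were taken over the same libraries and scaling factors.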

How the data were processed

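Total RNA of 9 dissected nigral samples was made into libraries with a stranded mRNA kit and sequenced with reads of 76 bases. The authors deposited raw counts per gene without normalization, from reads trimmed with Trimmomatic and aligned with STAR. The methods name featureCounts, but the files are laid out as STAR writes its gene counts. Counts of both strands together were used, because the reverse strand held 49.8 to 49.9% of the stranded counts in every library. Groups follow the sample labels. Counts were scaled by TMM, filtered with filterByExpr and tested in 1 fit of all 9 libraries with the quasi-likelihood test of edgeR 4.0.16 (R 4.3.3), with Benjamini-Hochberg adjustment over all genes and a threshold of 0.05. Values are mean CPM ± SD.

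The members and lists were chosen with earlier results of these data known. All members are named, and per list and comparison up to 3 called genes with the smallest p in CX3 against CTR. Libraries of the same letter did not deviate together (r from -0.16 to 0.04 over 9 pairs). Alternatives were DESeq2 1.42.0, other scalings, filters and strands, a replicate block, 2-group fits, a 1.5-fold threshold and leaving out each library. Figures used Python 3.11.15 with matplotlib 3.10.9. Single-cell data were not used here, and 1 gene of the oxidase list is not reported here.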

Additional observations from a re-analysis of the deposited data

How the results depend on the processing

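Each of the 27 member comparisons was recomputed under 15 alternatives. Of the 405 values, 357 kept their direction and their side of the threshold, 36 lost the call, 4 gained it and 8 changed sign. In every alternative the 5 oxidase genes remained called as lower in DAT than in CTR and than in CX3, and Hmox1 and Sod2 kept their calls against CTR, apart from the fold threshold given afterwards, which Sod2 did not pass. With scaling by library size alone the log2 fold change of Nqo1 in DAT against CTR became -0.026, and those of Nos2 and Sod2 in CX3 against DAT became 0.127 and 0.083. Forward-strand counts gave -0.127 for Nqo1 in DAT against CTR and 0.093 for Nos2 in CX3 against DAT, and reverse-strand counts gave 0.029 for Nqo1 in CX3 against CTR. Leaving out 1 library moved Nos2 in CX3 against DAT between -0.245 and 0.081. The cause was not tested.

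A threshold at a fold change of 1.5 left 529, 3773 and 3780 genes in CX3 against CTR, DAT against CTR and CX3 against DAT, where 6367, 12520 and 12311 were called, and 1 member in CX3 against CTR, since it asks for a larger change. A fit of CX3 and CTR alone called 5 members rather than 3, and 8443 of all genes rather than 6367. The replicate block, for letters that do not pair the libraries, called 5805, 12144 and 11955 genes and 3, 7 and 6 members, losing Nos2 in DAT against CTR (adjusted p = 0.0576) and Sod2 in CX3 against DAT (0.0503). Nos2 had 17 to 45 reads per library.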
